A study of Mus musculus with 2 samples.

Results

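The clustered protocadherin genes of the mouse were examined for open chromatin in blood neutrophils. They were the 57 protein-coding genes of GENCODE release M21 on chromosome 18 whose symbols name them as Pcdha, Pcdhb, Pcdhga, Pcdhgb, Pcdhac or Pcdhgc genes, of 21938 protein-coding genes in all. The 57 genes carried 56 symbols, because Pcdha11 was the symbol of 2 genes (ENSMUSG00000007440 and ENSMUSG00000102206). They comprised 12 alpha, 22 beta, 12 gamma A and 6 gamma B genes and 5 C-type genes, which were Pcdhac1, Pcdhac2, Pcdhgc3, Pcdhgc4 and Pcdhgc5. Pcdhgb8, annotated as a polymorphic pseudogene, was not a member. The rule used annotation alone and no measured value, but the set was chosen with earlier results of these data known.

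ATAC-seq marks accessible DNA with a transposase, which cuts open chromatin and adds adapters for sequencing. The cells were peripheral-blood neutrophils, phagocytes of the innate immune system, of C57BL/6J mice that were adult (5 to 6 weeks), with sex not collected. There was 1 group, with no treatment, genotype or other cell type to compare, and it held 2 libraries, biological replicates 1 and 2, of 50000 cells each. Both libraries cite the same donor record but different biosample records, so whether they are separate animals or pools is not clear. The spread between them may thus be technical or biological. How the cells were purified is not given in the sources used here.

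Clustered protocadherins are cell-surface adhesion proteins best known in the nervous system. Each variable exon of the alpha and gamma families has its own promoter and is spliced to constant exons shared by its family, whereas beta genes have a single coding exon. In single neurons a small, largely random subset of the alpha, beta and gamma promoters is used, C-type promoters are used more uniformly, and the resulting mix of proteins lets a neuron tell its own branches from those of others. Promoter choice in neurons involves CTCF and cohesin, DNA methylation and silencing complexes, and blood phagocytes are not a cell type in which the family is usually studied.

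The members lay on the forward strand between positions 36930184 and 37841873 of chromosome 18 (mm10, the GRCm38 build), an interval of 0.912 Mb. From the upstream end it held the alpha genes from Pcdha1 to Pcdha12, then Pcdhac1 and Pcdhac2, the beta genes from Pcdhb1 to Pcdhb22, the interleaved gamma A and gamma B genes, and Pcdhgc3, Pcdhgc4 and Pcdhgc5. The gene models showed the shared constant exons. All 14 genes of the alpha family ended within 10 bp of position 37187661, and all 21 genes of the gamma family within 10 bp of position 37841873. The 22 beta genes had 1 coding exon each and the other 35 genes had 4. First coding exons ran from 2316 to 2562 bp, so the genes differed little in size there.

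Peaks were taken from the lists that the authors deposited. The main list of each replicate was thresholded by the irreproducible discovery rate (IDR), a measure of how reproducibly a peak ranks. Overlapping peaks were merged, giving 27709 regions in replicate 1 and 14548 in replicate 2. A gene had a promoter peak when a region reached within 1 kb of an annotated start site of the gene, and it was called open when this held in both replicates. Each region carried the authors' signal value, an undefined score used here only to rank regions within a list. Its median over the peaks was 9.06 in replicate 1 and 10.7 in replicate 2. A gene without a listed peak is one where nothing passed the authors' threshold, which does not show that its promoter was inaccessible in every cell.

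No clustered protocadherin gene was open in both replicates. The count was 0 of 57, with a 95% Wilson interval up to 6.31%, where 39.8% of all protein-coding genes were open. In replicate 1 the share was 1 of 57 members (1.75%, Wilson interval 0.310 to 9.29%) against 47.1% of all genes, and in replicate 2 it was 0 of 57 against 40.3%. The 1 member in replicate 1 was Pcdhgb6. The other 456 protein-coding genes of chromosome 18 were open in 201 cases (44.1%). The intervals treat genes as separate draws and cover counting error only, while these genes are neighbours with related sequences. In cells measured in bulk, a promoter open in a few cells cannot be told apart from one weakly open in many.

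**Figure D1:**
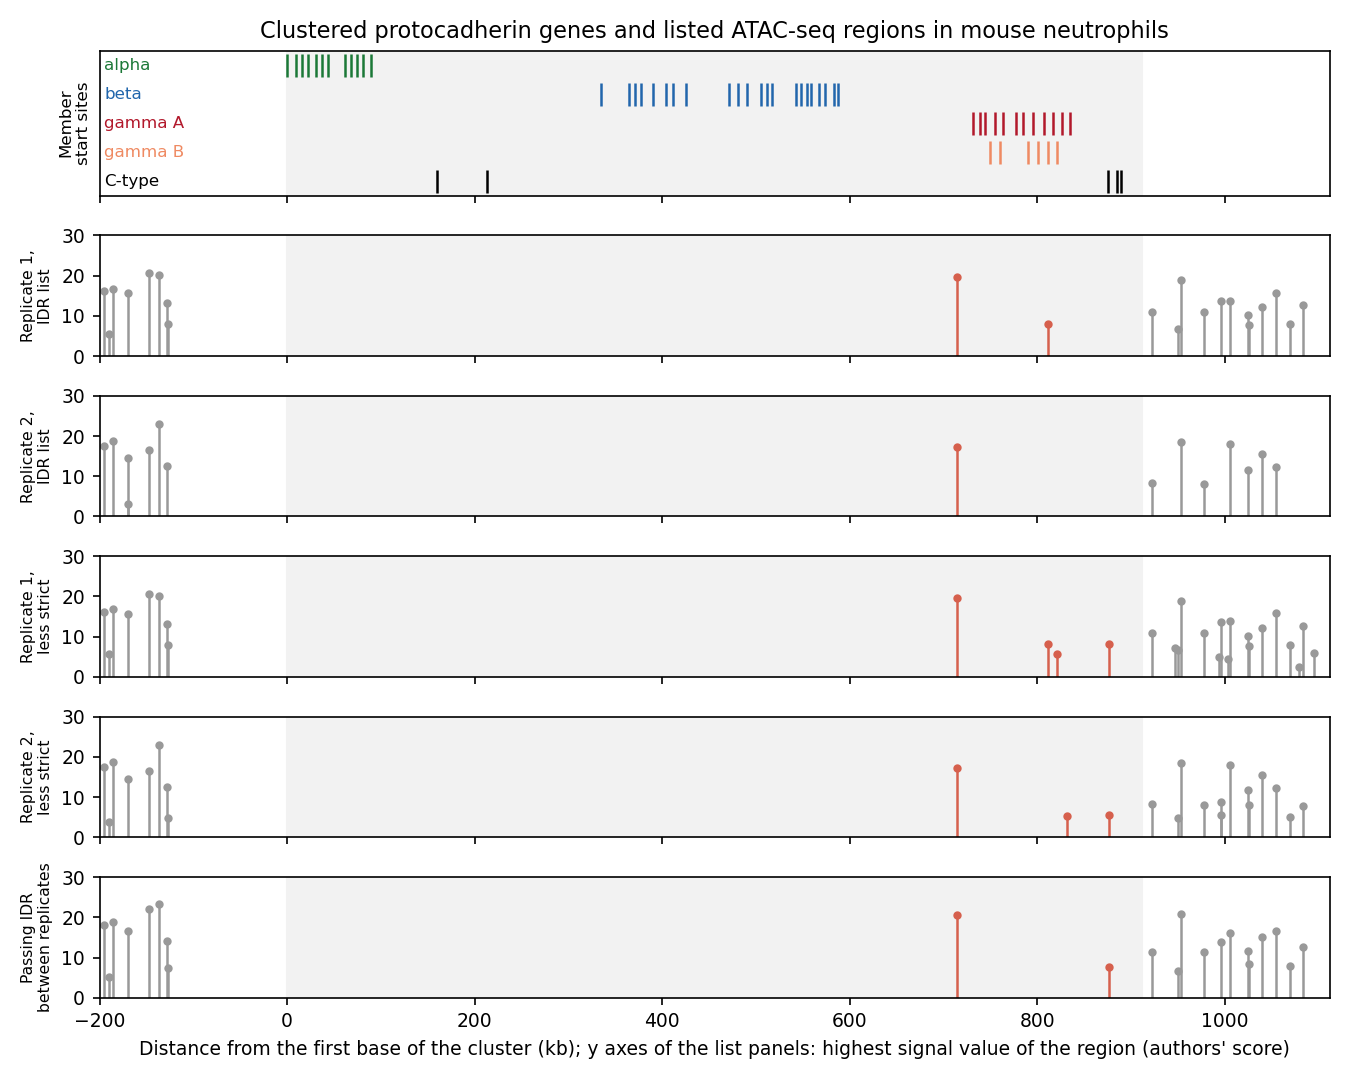
Start sites of the 57 members (top, by subfamily) and merged peak regions in 5 lists, by distance in kb from the first base of the cluster (shaded). Stem height is the authors' signal value; red stems lie inside the cluster, grey stems outside. Inside the cluster all 5 lists show the tall region of Taf7 at 714.0 kb, and the few other regions stand to its right, among the gamma family.

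By subfamily, the alpha genes (0 of 12), the beta genes (0 of 22) and the gamma A genes (0 of 12) had no promoter peak in the IDR list of either replicate, in the less strict list of either replicate, or in the pooled list of peaks passing IDR between the replicates. Those 46 genes make up most of the cluster, but each count is small: the Wilson interval of the 22 beta genes reached 14.9% and those of the 12 alpha and 12 gamma A genes 24.2%. Pcdhac1, Pcdhac2, Pcdhgc4 and Pcdhgc5 were without a peak in these 5 lists as well. The 3 members with a peak in any of them were Pcdhgb6, Pcdhgb7 and Pcdhgc3, 2 gamma B genes and 1 C-type gene.

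Pcdhgb6 (ENSMUSG00000103088) encodes a gamma B protocadherin. Its region in replicate 1 was 264 bp long, from 37741879 to 37742142, and its summit lay 82 bp upstream of the start site. The signal value was 8.06 and the authors' −log10 p was 23.6. This placed it at percentile 39.7 of the peaks of that list, below the list's median. In the ranked list of that replicate, its −log10 IDR was 1.60, just past the 1.30 that corresponds to an IDR of 0.05. In replicate 2 Pcdhgb6 had no peak in the IDR list, the less strict list or the ranked list. With the replicates pooled it had none either, in the list passing IDR or in the ranked list that includes weaker peaks.

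Pcdhgc3 (ENSMUSG00000102918), a C-type gene, was the only member with a peak in both replicates in any pair of lists used. In the less strict lists, made of peaks found in pseudoreplicates, its region ran from 37806199 to 37806460 in replicate 1 with a signal value of 8.22. In replicate 2 it ran from 37806258 to 37806472 with a signal value of 5.60. The 2 regions overlapped, and the value of replicate 1 stood at percentile 63.2 of its list against 29.3 for replicate 2. Neither passed the IDR threshold, with −log10 IDR of 1.15 in replicate 1 and 0.359 in replicate 2. The pooled list passing IDR between the replicates did hold the promoter, as a region of 290 bp from 37806188 to 37806477. There its signal value was 7.65, its −log10 IDR in the pooled ranked list was 1.76, and it stood at percentile 33.3 of the peaks passing. Its summit was 22 bp upstream of the start site, so the call differed between lists while the regions overlapped.

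Pcdhgb7 (ENSMUSG00000104063), another gamma B gene, had a region of 181 bp from 37751482 to 37751662 in the less strict list of replicate 1 only. Its signal value was 5.62 and its −log10 IDR 1.03, short of the threshold. The less strict lists thus held 3 members in replicate 1 (5.26%, Wilson interval 1.81 to 14.4%) against 54.5% of all genes, and 1 member in replicate 2 against 50.2%. In both replicates the count was 1, Pcdhgc3, against 49.8% of all genes. The list passing IDR between replicates held 1 member against 46.8%, and the ranked lists of both replicates held the same member, Pcdhgc3, against 49.9%. Taken singly, the ranked lists held 3 members in replicate 1 against 54.6% and 1 in replicate 2 against 50.3%. The share of members stayed below the share of all genes in each of these lists.

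Going below the threshold of the pooled ranked list brought in weaker regions. They lay among the gamma-family genes at Pcdhgb4 (signal value 5.15), at Pcdhgc4 (3.02) and at the pseudogene Pcdhgb8 (6.27), and between Taf7 and Pcdhga1 at the processed pseudogene Gm8242 (4.70). Their −log10 IDR values were 1.07 for Pcdhgb8 and 0.388 for the other 3. Pcdhgb8 also had a region in the less strict list of replicate 2, with a signal value of 5.27 and a summit 166 bp upstream of its start. None of these 4 regions reached the median signal value of the pooled list passing the threshold, 9.59. Neither did the Pcdhgc3 region, which passed it, at 7.65.

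Inside the interval 1 region was found in the IDR lists of both replicates, and it belonged to Taf7. Taf7 (ENSMUSG00000051316) encodes a subunit of the general transcription factor TFIID and lies on the reverse strand between the beta and the gamma genes. Its region ran from 37643985 to 37644435 with a signal value of 19.6 in replicate 1, and from 37644025 to 37644519 with a signal value of 17.3 in replicate 2. These stood at percentiles 97.8 and 89.8 of their lists. In the pooled list passing IDR the signal value was 20.5, and the summit lay 15, 19 and 17 bp upstream of the start site in the 3 lists. So the cluster held a strongly called promoter in both replicates, but that of a general transcription factor gene. Slc25a2, a mitochondrial carrier gene next to Taf7, had no peak in these lists, and neither did the protein-coding gene models Gm42416, Gm37013 and Gm37388, which run through most of the interval.

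No region of the interval was distal. In the IDR, less strict, pooled and ranked lists alike, the number of regions with a summit over 1 kb from every annotated start site was 0. The summits fell in annotated introns or noncoding exons. Because Gm42416, Gm37013 and Gm37388 run through most of the interval, nearly any base outside exons counts as intron there. The Taf7 summits, upstream of its start site, were labelled intron too. In these lists 0 bases of any region overlapped coding sequence, including the long variable exons.

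The interval was also sparse for its length. Replicate 1 had 2 regions in it, Taf7 and Pcdhgb6, or 2.19 per Mb, against 7.88 per Mb on chromosome 18 and 10.2 per Mb on the 21 assembled chromosomes. Replicate 2 had 1 region, or 1.10 per Mb, against 4.02 and 5.34. The ratio of the interval to the genome was 0.216 in replicate 1 and 0.205 in replicate 2. With only 2 regions and 1 region behind these ratios, their closeness does not show that the replicates agree. In the less strict lists both ratios were higher but still below 1, and that of replicate 2 exceeded that of replicate 1. The stretch of the same length just upstream held 21 regions in replicate 1 and 13 in replicate 2, and the stretch just downstream held 27 and 14. Both flanks therefore held many more regions than the cluster, with 23 and 13 protein-coding start sites against its 62.

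Windows of the same length along the chromosomes show how common such a count is. Over 2916 windows, 38.6% had no more regions than the interval in replicate 1 and 42.4% in replicate 2, so a low count by itself is ordinary. Among the 285 windows with at least 20 protein-coding start sites, 28 windows (9.82%) had no more than 2 regions in replicate 1, where the median was 27.0. In replicate 2 the number was 33 (11.6%) and the median 16.0. This restriction to gene-dense windows was added after the data were examined. Of the 28 sparse windows of replicate 1, Olfr symbols, which name olfactory receptor genes, were the commonest in 12 and Gm gene models in 7. Keratin-associated protein (Krtap) genes and vomeronasal receptor (Vmn) genes led 2 each. Low counts in gene-dense windows were thus shared with other tandem gene families and are not particular to protocadherins.

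**Figure D2:**
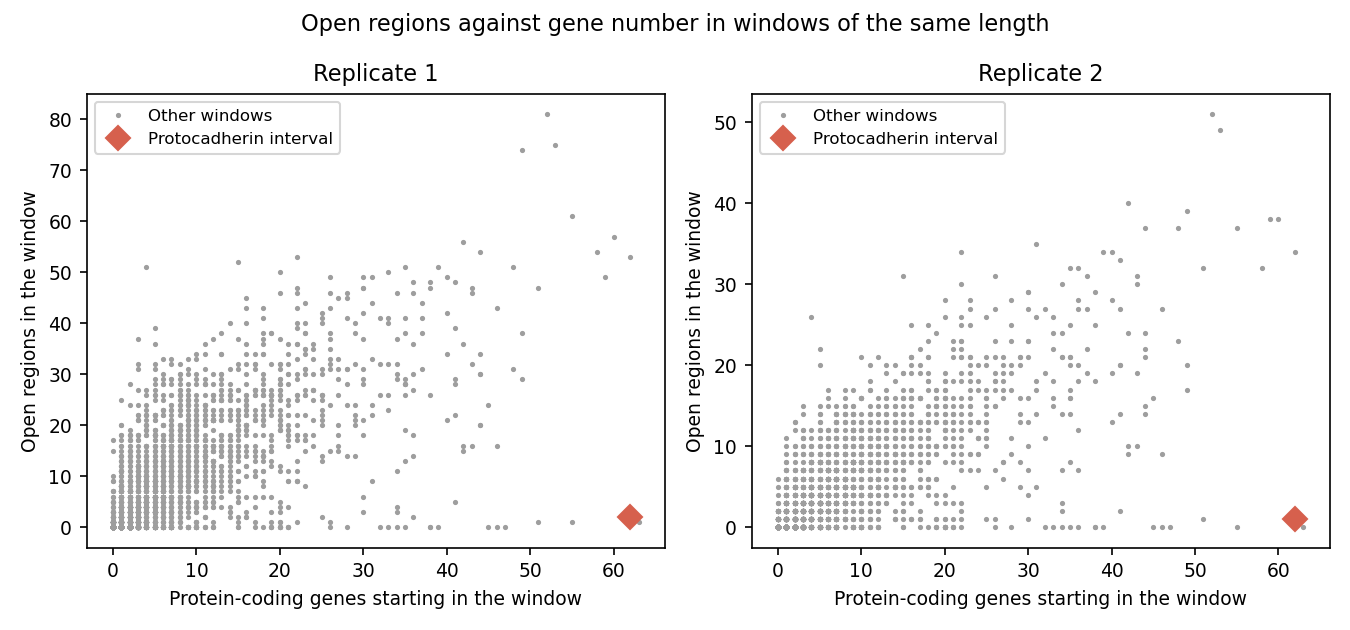
Number of merged regions of the IDR list (vertical axis) against the number of protein-coding start sites (horizontal axis) in windows as long as the cluster, for replicate 1 (left) and replicate 2 (right). Grey points are windows tiled along the chromosomes, and the red diamond is the protocadherin interval, with 62 start sites and 2 regions in replicate 1 and 1 region in replicate 2.

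The alpha and beta genes lay in an empty stretch. From the last region upstream to the Taf7 region, replicate 1 had a gap of 841 kb and replicate 2 a gap of 842 kb. That gap took in the start sites of all 36 alpha, beta, Pcdhac1 and Pcdhac2 genes, and it was empty in each of the 5 lists compared. On chromosome 18, 21 of 714 gaps between neighbouring regions were longer in replicate 1, and 23 of 364 in replicate 2. With 40 protein-coding start sites it was matched or exceeded by 17 other gaps of the genome in replicate 1 and 18 in replicate 2, of which 9 in each held mostly Olfr genes. Downstream, the first region lay 10.3 kb past the last member, in an intron of Diaph1, a gene for an actin-nucleating formin. Its signal value was 10.9 in replicate 1 and 8.25 in replicate 2.

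The genes on either side were open in both directions. Upstream, Zmat2, a gene for a zinc finger protein, had promoter signal values of 20.2 and 23.0 in replicates 1 and 2. Hars and Hars2, histidyl-tRNA synthetase genes that share a promoter region, had 20.7 and 16.5. Downstream, Diaph1 had 13.8 and 18, and Hdac3 and Rell2, a histone deacetylase gene and its divergent neighbour, shared a region of 10.2 and 11.7. Of the 10 protein-coding genes on each side, 15 of 20 were open in both replicates (75.0%, Wilson interval 53.1 to 88.8%). Cd14, Dnd1 and E230025N22Rik had no promoter peak in the IDR lists, and neither did Pcdh12, while Pcdh1 had one in replicate 1 only. Most of the nearest genes on both sides were thus open, unlike the members between them.

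**Figure D3:**
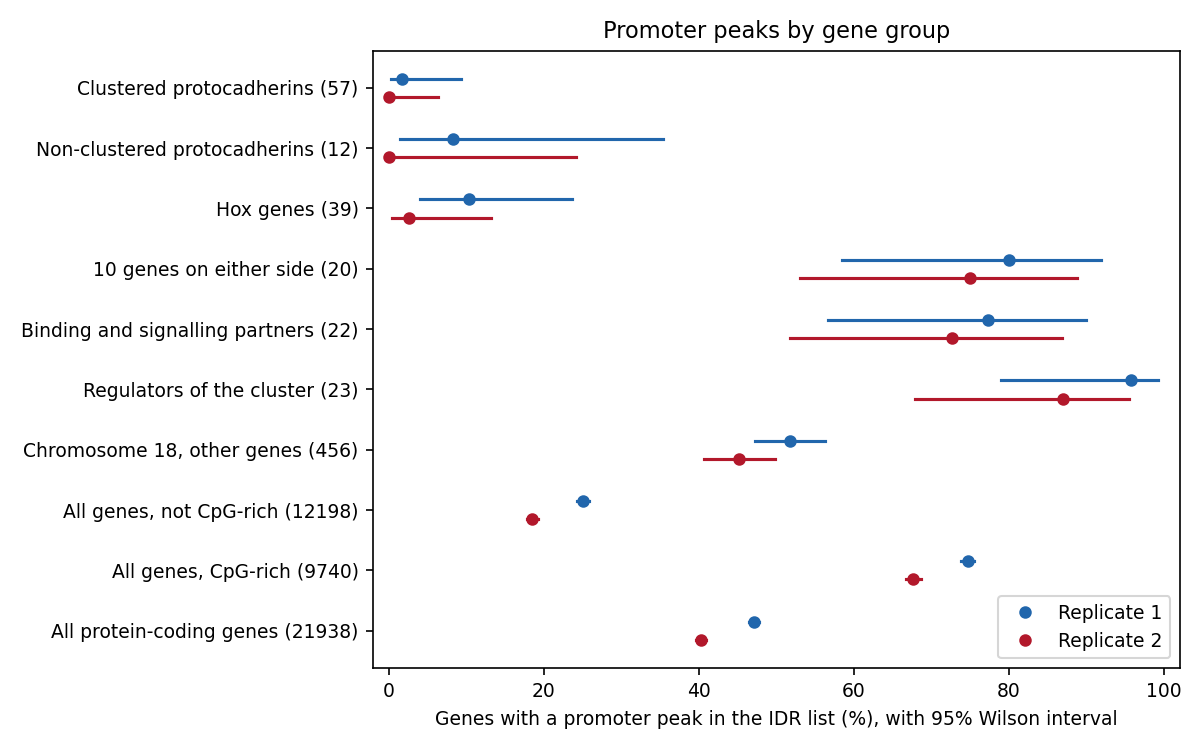
Share of genes with a promoter peak in the IDR list of replicate 1 (blue) and replicate 2 (red), in percent with 95% Wilson intervals, for 10 groups of genes with their sizes in parentheses. The 57 clustered protocadherins (1.75% and 0%) lie beside the 12 non-clustered protocadherins and the 39 Hox genes, and far below the 20 genes flanking the cluster.

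The protocadherins encoded outside the cluster also had a low count. These genes stand alone, with their own promoters, and 0 of 12 were open in both replicates (Wilson interval up to 24.2%). Pcdh1 had a promoter signal value of 8.56 in replicate 1, none in the IDR list of replicate 2, 5.57 in the less strict list of replicate 2 and 8.68 in the pooled list passing IDR. The other 11, among them Pcdh10, Pcdh11x and Pcdh12, had no promoter peak in any of these lists. Pcdh1 and Pcdh12 lie downstream of the cluster and are also counted among the flanking genes above. The 39 Hox genes, developmental regulators that also lie in clusters, were open in 1 case (2.56%, Wilson interval 0.454 to 13.2%). That gene was Hoxa7, with 8.98 in replicate 1 and 8.60 in replicate 2. In the IDR lists Hoxa4, Hoxa10 and Hoxb4 had a peak in replicate 1 alone, and Hoxa11 and Hoxa13 were among those with none. The less strict list of replicate 2 did hold Hoxa4, Hoxa10 and Hoxb4, at 6.53, 6.91 and 6.99. The pooled list passing IDR held them too, at 9.02, 8.47 and 7.69. The groups differ in promoter sequence. CpG-rich promoters, as defined below, made up 66.7% of the non-clustered protocadherins and 61.5% of the Hox genes, against 5.26% of the members. Whether the clustered genes differ from either group in open promoters was not tested, and the intervals overlap.

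Most genes listed for proteins that act on the cluster or on its products were open, where 39.8% of all genes were open. Of 23 genes listed as regulators of the cluster (CTCF and cohesin, DNA methylation, silencing complexes), 20 were open in both replicates (87.0%, Wilson interval 67.9 to 95.5%). Promoter signal values were high at the cohesin subunit gene Rad21 (16.5 and 19.3) and at the cohesin regulator gene Pds5b (14.9 and 19.5). Ctcf itself, named for its role with its values already seen, had 8.07 and 7.18, below the median of both lists. The genes not open were Dnmt3b, Rest and Ehmt2. Dnmt3b, a de novo DNA methyltransferase gene, had no peak in either IDR list. Rest and Ehmt2 had 6.36 and 8.75 in the IDR list of replicate 1 and no peak in that of replicate 2. In the less strict lists all 23 regulators had a promoter peak in both replicates, against 49.8% of all genes. The values there in replicate 2 were 4.48 for Dnmt3b, 5.89 for Rest and 6.61 for Ehmt2. Rest encodes a repressor of neuronal genes, and Ehmt2 a histone methyltransferase.

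Of 22 genes for binding and signalling partners of protocadherin proteins, 15 were open in both replicates (68.2%, Wilson interval 47.3 to 83.6%). Nckap1l, the blood-cell subunit gene of the WAVE complex that drives actin branching, had 21.9 in replicate 1 and 21.5 in replicate 2, and its paralogue Nckap1 had no peak in either. Ncstn and Aph1a, genes of the gamma-secretase that cleaves protocadherins in the membrane, had 20.5 and 15.0, and 15.6 and 18.3. Cyfip2 and Ptk2 also had no promoter peak in the IDR lists. CpG-rich promoters, as defined below, made up 78.3% of the regulators and 72.7% of the partners, against 5.26% of the members. The open shares of both lists therefore stand beside the 66.8% of CpG-rich genes that were open. Whether either list differs from genes of its CpG class was not tested.

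The labelled cell type was set against marker lists, which did not settle how pure the cells were. The label, neutrophil, is used as given. Of 12 neutrophil markers, 10 had a promoter peak in replicate 1 and 4 in both replicates, with Clec4e at 19.1 and 16.2, Itgb2 at 13.3 and 14.7 and Mmp8 at 13.9 and 11.6. Ly6g, which defines mouse neutrophils, and Camp had none in either list. Of 6 B cell markers, 6 had a promoter peak in replicate 1 and 4 in both, with Cr2 at 23.7 and 17.0. The share open in both replicates was 66.7% of the B cell markers and 33.3% of the neutrophil markers. These are few genes each, and their Wilson intervals overlapped. Of all genes 39.8% were open, and 18.2% of genes that, like all these markers, were not CpG-rich. In the less strict lists of both replicates the counts were 9 of 12 neutrophil and 6 of 6 B cell markers, against 49.8% of all genes. They were also 9 and 6 in the pooled list passing IDR, against 46.8%. T cell markers were open in both replicates in 1 of 6 cases (Cd3d), platelet markers in 1 of 6 (Itgb3), and monocyte and erythroid markers in 0 of 6 each. Of 10 neuronal markers, Syn1 alone was open, at 20.4 and 17.5. The less strict lists of both replicates held 2 T cell, 2 platelet, 1 monocyte (Csf1r), 0 erythroid and 2 neuronal markers. The pooled list passing IDR held 2, 2, 1 (Ly6c2), 0 and 1 of them. The part of other cell types in the 3 weak protocadherin regions was not tested.

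The members' promoters were poor in G and C. Within 500 bp on either side of the 5'-most start site the median GC share was 44.9%, against 54.7% over all protein-coding genes, whereas the median observed-to-expected CpG ratio was 0.564 against 0.552. A promoter was called CpG-rich at a ratio of at least 0.6 with a GC share of at least 0.5. This held for 3 of 57 members (5.26%), Pcdhac2, Pcdhgc3 and Pcdhgc4, and for 44.4% of all genes. Of CpG-rich genes 66.8% were open, and of the other genes 18.2%. The 3 CpG-rich members were not open (Wilson interval up to 56.1%), and neither were the 54 others (up to 6.64%).

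The subfamilies differed in CpG content. The median ratio was 0.684 in the alpha genes (range 0.569 to 0.749), 0.588 in gamma A (0.318 to 0.864), 0.650 in gamma B (0.55 to 0.686) and 0.670 in the C-type genes (0.233 to 0.797). In the beta genes it was 0.378, and the highest beta value, 0.519, lay below the lowest alpha value. The extremes were Pcdhb9 at 0.158 and Pcdhga11 at 0.864. GC shares had medians of 45.1% in alpha, 41.3% in beta, 46.2% in gamma A, 47.5% in gamma B and 55.8% in C-type genes, with C-type promoters highest. A ratio of at least 0.6 with a GC share below 50% was found in 343 protein-coding genes, of which 61.8% were open. It was found in 19 members, of which 0 were open (Wilson interval up to 16.8%). These were 11 of 12 alpha, 4 of 12 gamma A and 4 of 6 gamma B genes. The combination was chosen after the values were seen. For ratios below 0.6 the counts were 0 of 35 members and 16.9% of 11855 genes.

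**Figure D4:**
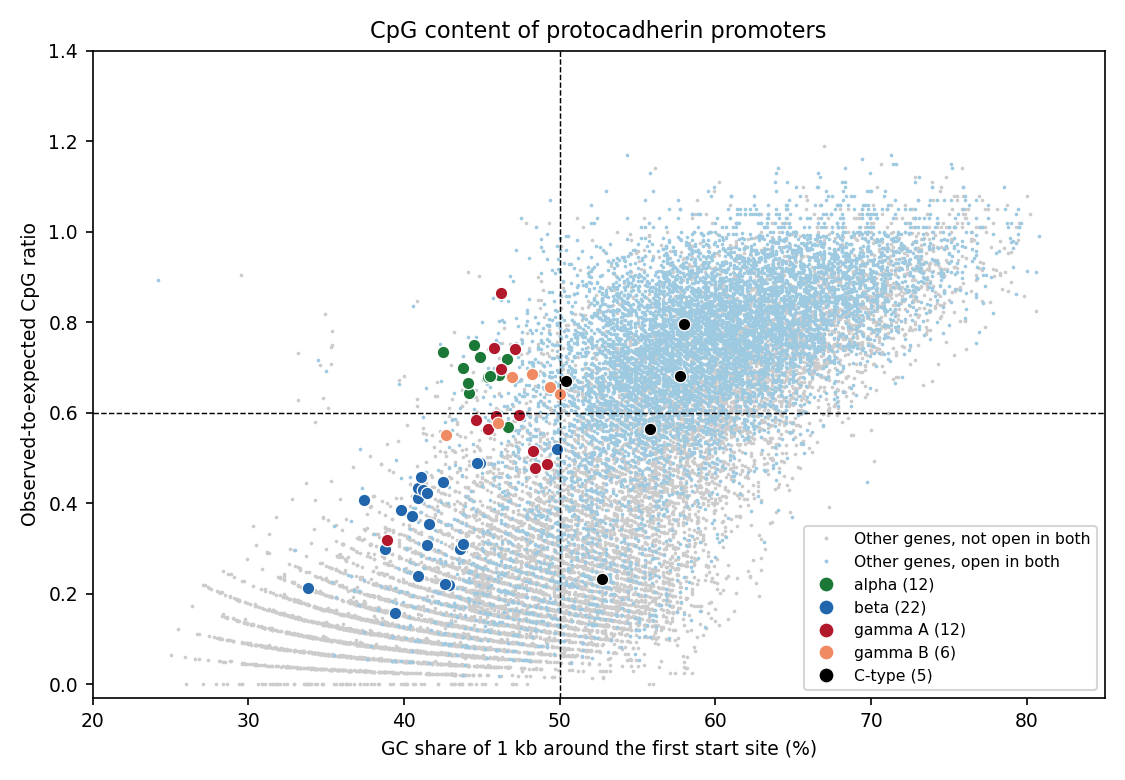
Observed-to-expected CpG ratio against GC share (%) in the 1 kb around the first start site of each protein-coding gene; dashed lines mark the CpG-rich limits. Large points are the 57 members by subfamily, and small points are other genes, blue where open in both replicates. The members lie to the left of most blue points, with the beta genes lowest and only 3 C-type genes in the upper right field.

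Because the genes are copies of each other, reads from one promoter may match several. The share of 31-base words that occur once in the assembled chromosomes was computed for the 2 kb around each start site. The median was 93.4% over the members (range 73.2 to 100%) and 99.2% over the other protein-coding genes of chromosome 18 (21.9 to 100%). Alpha promoters (median 88.5%) and gamma B promoters (88.9%) repeated most, beta (99.5%) and C-type promoters (100%) least, and Pcdha7 had the lowest value. The Pcdhgb6 region was 79.1% unique and the Pcdhgb7 region 67.5%, whereas the Pcdhgc3 and Taf7 regions were 100% unique. Of the members at 99% or more, 0 of 22 were open, against 110 of 243 other genes of the chromosome (45.3%). At 90% to under 99% it was 0 of 12 against 81 of 175 (46.3%), and under 90% it was 0 of 23 against 10 of 38 (26.3%). The part of repeated sequence in the low count was not tested. The read length and the treatment of reads with several matches are not stated in the labels or headers used here.

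**Figure D5:**
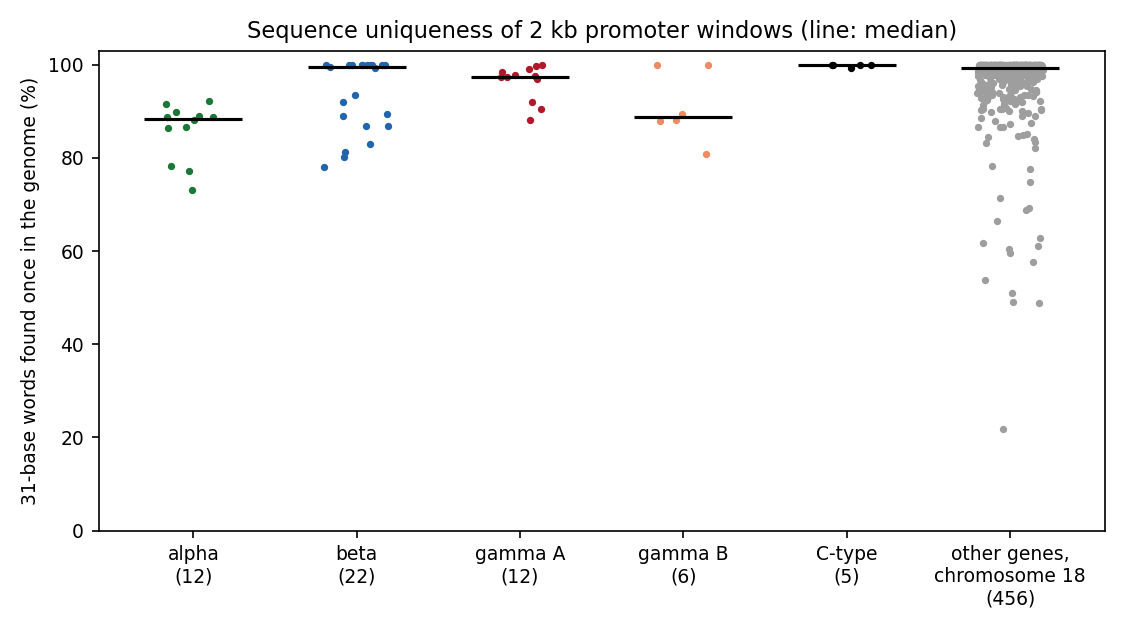
Share of 31-base words of the 2 kb promoter window found once in the genome (%, vertical axis) for the members by subfamily and for the 456 other protein-coding genes of chromosome 18. Each point is a gene, with horizontal jitter, and lines are medians, lowest in alpha (88.5%) and gamma B (88.9%).

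Short motif strings were searched on both strands of the same 2 kb windows. The string CCANNAGGG, part of the CTCF motif, was found in 8 of 57 member promoters (14.0%) and in 29.3% of all protein-coding promoters. The 8 were Pcdhb3, Pcdhb6, Pcdhb7, Pcdhb8, Pcdhb15 and Pcdhb19 among the beta genes and Pcdhac1 and Pcdhgc4 among the C-type genes, with 0 among the alpha, gamma A and gamma B genes. The string TTCAGCACC, part of the motif of the neuronal repressor REST, was in 0 members and 2.90% of promoters. For factors of myeloid cells, GAGGAAGT (PU.1) was in 5 members (8.77% against 12.2%), TTGCGCAA (CEBP) in 1, Pcdhgb5 (1.75% against 0.611%), and TGTGGTTT (RUNX) in 4 (7.02% against 10.8%). No string holds another of the 5, and a match is not a binding site. None was found in the regions of Taf7, Pcdhgb6 or Pcdhgc3 in the IDR lists or the pooled list passing IDR; the CTCF string was in 12% of all regions of replicate 1, 11.8% of replicate 2 and 13.1% of that pooled list. A missing string says only that these letters were not in the window.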

How the data were processed

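ATAC-seq peak lists of 2 libraries of mouse blood neutrophils were used, on mm10 per the file headers. The aligner, the peak caller and any shift of reads to the cut site were not given in the sources used here. No read counts were used, so the depth is unknown. Replicate 1 had 34409 peaks in its IDR list and replicate 2 had 18367, and whether depth sets this difference was not tested. Column 7 of the deposited lists is a signal value, a score without a definition in the labels or headers. The −log10 p in column 8, and the −log10 IDR in column 12 of the ranked lists, are the authors' deposited values too, and the headers name no test. Each replicate has an IDR list (main), a less strict list from pseudoreplicates and a ranked list, per the file headers; the conservative IDR list and a ranked list were made from both replicates together. In the ranked lists 34543 peaks of replicate 1 and 18470 of replicate 2 had an IDR of at most 0.05, close to the length of the IDR lists.

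Overlapping peaks were merged into regions, each with the summit and values of its strongest peak. Overlap needed at least 1 bp. Start sites, exons and sequence came from GRCm38 with GENCODE release M21, and positions count from 1. Shares have 95% Wilson intervals (statsmodels 0.14.6). With 1 group there was no comparison between samples and no test. Programs were written in Python 3.11.15 with numpy 2.4.6, pandas 2.3.3 and numba 0.67.0, and were tested on simulated data. The members and lists were chosen with earlier results of these data known. The text names each member with a promoter peak in any list, the 5 C-type genes, other protein-coding genes with a region in the interval, the 3 genes nearest on either side, and, per comparison list, the 3 with the highest mean signal value and up to 3 without a promoter peak in alphabetical order. Some genes that this rule names are left out here. Members named for extreme CpG ratio, uniqueness or a motif, weaker regions of the pooled ranked list, and listed genes with a peak in 1 replicate were named after their values were seen. Alternatives were other lists, stronger peaks, promoter widths of 2.5 kb and 500 bp, the 5'-most start site, summits, a 50% reciprocal overlap, other CpG limits and each replicate alone.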

Additional observations from a re-analysis of the deposited data

How the results depend on the processing

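The number of members with a promoter peak in both replicates (0) became 1 with the less strict lists, 1 with the list passing IDR between replicates and 1 with the ranked lists, in each case Pcdhgc3, and ran from 0 to 1 when 1 replicate was left out (Pcdhgb6 without replicate 2). It was 0 with stronger peaks, where 30.4% of all genes were open, with promoters of 2.5 kb (41.5%) or 500 bp (38.9%), with the 5'-most start site (36.5%) and with summits (39.5%). For the non-clustered protocadherins the count (0) was 1 with each of the 3 other kinds of list and ran from 0 to 1 with 1 replicate left out. For Hox genes the count (1) was 4 with each of these lists, 0 with stronger peaks, and ran from 1 to 4. Regions of the interval shared by the replicates (1) were 2 with the less strict lists and 2 with the list passing IDR between replicates, and ran from 1 to 2. The ratio of densities to the genome (0.209) was 0.240 with the list passing IDR, 0.346 with stronger peaks, 0.220 with a reciprocal overlap of 50%, and ran from 0.205 to 0.216. CpG-rich members (3) were 1 at limits of 0.75 and 0.55, and 22 at a ratio of at least 0.6 with any GC share, an alternative added after the data were examined. The cause of these changes was not tested. Distal regions stayed at 0 in the alternatives run. Open regulators (20) were 15 with stronger peaks and 23 with the less strict lists, and open partners (15) were 11 and 20. Of all genes 30.4% and 49.8% were open in these settings. Of 82 alternative values, 61 stayed within their limits and 21 moved. The limit for counts was a ratio of 1.5, so these shifts of regulators and partners count as staying. The limit for the density ratio was tighter, as 0.220 against 0.209 counts as moved. No paired analysis was possible because the 2 libraries form 1 group. With depth unknown, an unlisted promoter sets no upper limit on accessibility.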
